A study of Mus musculus with 9 samples.

Results

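The genes described here are 42 genes of the cell cycle and of DNA replication, taken by name from the 34669 genes of a table of transcript levels in mouse kidney. They were listed by function, though with earlier results of these data known, and all 42 were found in the table. By textbook role, 2 belong to G1 (Ccnd1 and Cdk4), 19 to the entry into and the work of S phase, and 21 to G2 and mitosis. The samples were renal cortex from male wild-type C57BL/6 mice, 10 weeks old, in 3 groups of 3 libraries. In the vehicle group the blood supply of both kidneys was shut off at the renal pedicle for 30 min (bilateral ischemia-reperfusion injury, bIRI), and the mice received vehicle by daily gavage from 3 days before the operation until tissue was taken on day 14. The TJ0113 group had the same clamping and the compound TJ0113 by the same schedule; the labels also spell the compound TJ013. Sham mice were operated on without clamping, and the sources used here give neither a day nor a gavage for them. The labels give separate replicate numbers and do not say whether each library is a separate mouse. The spread between libraries may therefore be partly technical, and the tests treat the libraries as independent.

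A dividing cell passes in order through G1, S phase, G2 and mitosis. In G1, cyclin D with CDK4 or CDK6 and then cyclin E with CDK2 phosphorylate the retinoblastoma family, which releases E2F factors from their targets, the genes that make nucleotides and copy DNA. Genes of G2 and mitosis are switched on later through B-MYB, FOXM1 and NF-Y, and in resting cells the DREAM complex keeps them off. Tubule cells of a healthy adult kidney rarely divide, and after ischemia surviving tubule cells re-enter the cycle, while macrophages, fibroblasts and other cells in an injured kidney can divide as well.

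The promoters show how the 2 phases differ in sequence, so stretches from both are printed first. RefSeq promoters (mouse build GRCm38.p6), each 300 bases long from 250 before to 50 after the annotated start, were found for 32 of the 42 genes, 16 of S phase and 15 of mitosis among them. In the following lines the 150 bases before the start are written 5' to 3' on the gene's own strand, with motifs on either strand in capitals. The capitals mark the NF-Y box (CCAAT, or ATTGG on the other strand), the cell cycle homology region or CHR (TTTGAA or TTCGAA, with TTCAAA as the other strand of the first) and a common E2F site (TTCCCGC or TTGGCGC). The first 5 genes act in mitosis and the last 2 in S phase: the cyclin Ccnb2 at chr9:70421555-70421704 (minus strand), its kinase Cdk1 at chr10:69352913-69353062 (minus), the anaphase activator Cdc20 at chr4:118437344-118437493 (minus), the DNA topoisomerase Top2a at chr11:99024190-99024339 (minus), the spindle motor Kif11 at chr19:37376232-37376381 (plus), the helicase subunit Mcm6 at chr1:128359706-128359855 (minus) and the ribonucleotide reductase subunit Rrm1 at chr7:102441545-102441694 (plus).
Ccnb2: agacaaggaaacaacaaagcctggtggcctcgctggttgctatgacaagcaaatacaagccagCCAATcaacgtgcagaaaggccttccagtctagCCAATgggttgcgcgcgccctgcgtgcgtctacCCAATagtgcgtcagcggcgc
Cdk1: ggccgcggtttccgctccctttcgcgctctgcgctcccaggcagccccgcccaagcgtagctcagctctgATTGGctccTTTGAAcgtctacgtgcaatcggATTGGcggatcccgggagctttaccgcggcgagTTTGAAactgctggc
Cdc20: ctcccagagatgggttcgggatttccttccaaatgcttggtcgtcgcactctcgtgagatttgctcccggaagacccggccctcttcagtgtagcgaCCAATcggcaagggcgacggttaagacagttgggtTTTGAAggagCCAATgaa
Top2a: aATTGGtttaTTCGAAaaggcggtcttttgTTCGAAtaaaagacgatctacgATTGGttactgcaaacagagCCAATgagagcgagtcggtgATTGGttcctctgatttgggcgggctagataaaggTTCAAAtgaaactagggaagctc
Kif11: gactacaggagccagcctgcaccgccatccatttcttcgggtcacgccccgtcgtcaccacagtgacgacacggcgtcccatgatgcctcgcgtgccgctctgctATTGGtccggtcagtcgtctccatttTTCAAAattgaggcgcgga
Mcm6: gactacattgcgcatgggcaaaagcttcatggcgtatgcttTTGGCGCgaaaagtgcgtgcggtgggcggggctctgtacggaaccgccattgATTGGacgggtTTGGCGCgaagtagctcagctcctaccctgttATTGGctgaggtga
Rrm1: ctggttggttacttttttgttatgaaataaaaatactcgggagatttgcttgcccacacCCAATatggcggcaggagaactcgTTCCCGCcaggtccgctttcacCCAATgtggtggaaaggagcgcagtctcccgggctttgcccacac
Ccnb2 shows 3 NF-Y boxes and no CHR in these bases. Cdk1 has 2 of each motif, Top2a has 4 NF-Y boxes and 3 CHR, and Cdc20 and Kif11 pair the box with a CHR within 20 bases of the start. Mcm6 has 2 E2F sites and Rrm1 has 1, and neither shows a CHR here.

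Over the whole window, the NF-Y box was found in 14 of 15 mitosis promoters (93.3%), in 10 of 16 S phase promoters (62.5%) and in 41.1% of all 27025 promoters in the table. A CHR was found in 12 of 15 mitosis promoters (80%), in 3 of 16 S phase promoters (18.8%) and in 21.7% of all. The E2F site went the other way, with 8 of 16 S phase promoters (50%), 3 of 15 mitosis promoters (20%) and 7.79% of all. All 12 mitosis promoters with a CHR also held an NF-Y box, a pair found in 9.65% of all promoters. When only the 250 bases before the start were searched, 8 of 15 mitosis promoters held a CHR (53.3%, against 19.6% of all) and 6 of 16 S phase promoters an E2F site (37.5%, against 6.45%). For further genes listed for the same phases, the shares were a CHR in 70.2% of 47 mitosis promoters and 12.1% of 33 S phase promoters, and an E2F site in 17% and 54.5%. An NF-Y box read on the other strand can share the letters TTGG with an E2F site. A match is a stretch of letters in this window and was not tested as a binding site.

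**Figure D1:**
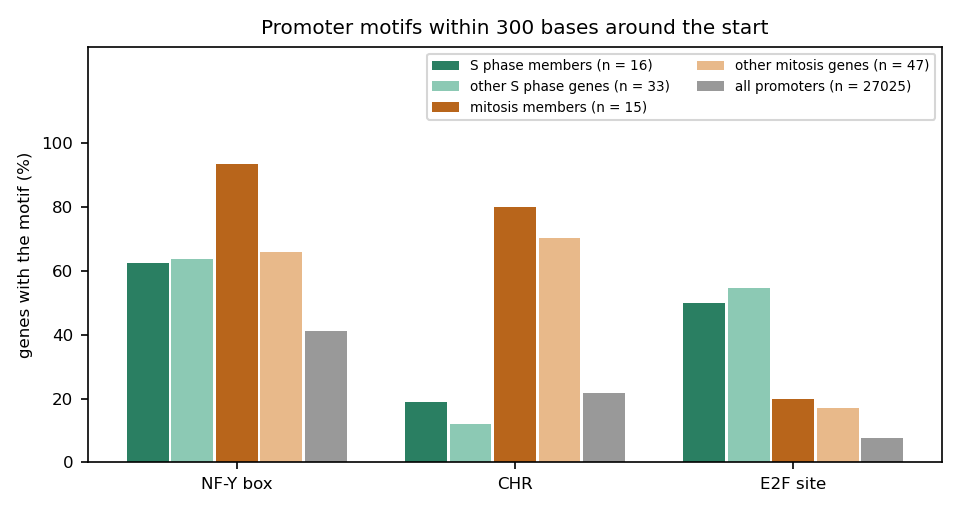
Share of genes (%) whose 300-base promoter window holds an NF-Y box, a CHR or an E2F site, for S phase and mitosis genes of the set, further genes listed for each phase, and all promoters in the table. The CHR stood in 80% of the mitosis promoters and 18.8% of the S phase promoters of the set, and the E2F site in 20% and 50%.

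Levels are FPKM, fragments scaled to the length of the transcript and to a fixed number of counted fragments, as the authors deposited them; the estimated depth ran from 31200000 to 42700000 fragments a library. The proximal tubule markers fixed as a tissue check were abundant in sham, where 10 genes summed to 5232 to 5708 FPKM. Changes from sham are given on the scale log2(FPKM + 1), which understates the change of low genes, and relative to the median gene, because the median gene itself stood 0.30 higher in vehicle and 0.26 higher in TJ0113 than in sham. Tests used limma over every gene whose mean over the libraries reached 0.5 FPKM, with Benjamini-Hochberg adjustment and a threshold of 0.05. Each adjusted p and SE belongs to the change as fitted, before the shift of the median gene was taken off, so no p tests the relative value printed beside it; fitted values are added for genes near the threshold. In bulk cortex, a lower share of cells of a type and less of the RNA per cell cannot be told apart.

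Most of the cell cycle genes were higher 14 days after the injury than in sham. Of the 38 genes tested, 32 rose in vehicle and none fell, where 31.3% of all 15453 genes tested rose and 5.42% fell. They comprise 14 of 18 S phase genes, 17 of 18 mitosis genes and Cdk4. After median-ratio scaling, which brings the median gene close to 0 before the test, 25 rose (7 S phase genes, 17 mitosis genes and Cdk4) and Ccnd1 fell, against 15.9% of all genes tested that rose and 15.3% that fell. The 7 calls lost there were Cdk2, E2f1, Cdt1, Mcm7, Pcna, Tyms and Tk1. The median relative log2 change was 0.32 for the S phase genes and 0.73 for the mitosis genes, against 0 for all genes tested. As ratios of mean FPKM over all 42 genes, the median was 1.91 for S phase and 6.62 for mitosis, against 1.34 over the genes tested. In 40 of the 42 genes every vehicle library lay above every sham library, as it did for 45.9% of the genes tested, and Ccnd1 lay wholly below sham, as did 10.8%. The 4 genes under the limit, Cdc6, Cdc25c, Bub1 and Cenpf, were not tested. Among those tested, 15 had a sham mean below 0.5 FPKM and passed that limit only through the injured groups, 14 of them mitosis genes; of the other 23, 18 rose. Without any limit on level, 25 of the 42 rose (6 of 19 S phase and 18 of 21 mitosis genes), against 7.17% of all genes. That share is of 34669 genes, most of them below 0.5 FPKM, so it is not matched to the 42 for level. The same holds for each later share given without a limit.

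How many genes pass depends on single libraries. Of the 32 genes that rose in vehicle, 12 passed in every fit that left out 1 of the 9 libraries: Mcm3 and Rrm2 of S phase, and Mki67, Top2a, Ccna2, Ccnb2, Cdk1, Cdc20, Aurkb, Plk1, Ube2c and Kif20a of mitosis. The other calls were lost without sham library 2, where the same 12 were called; without sham library 3 the count was 16. For TJ0113 against sham the counts were 12 without sham library 2, 15 without sham library 3 and 14 without TJ0113 library 3, in place of 33.

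**Figure D2:**
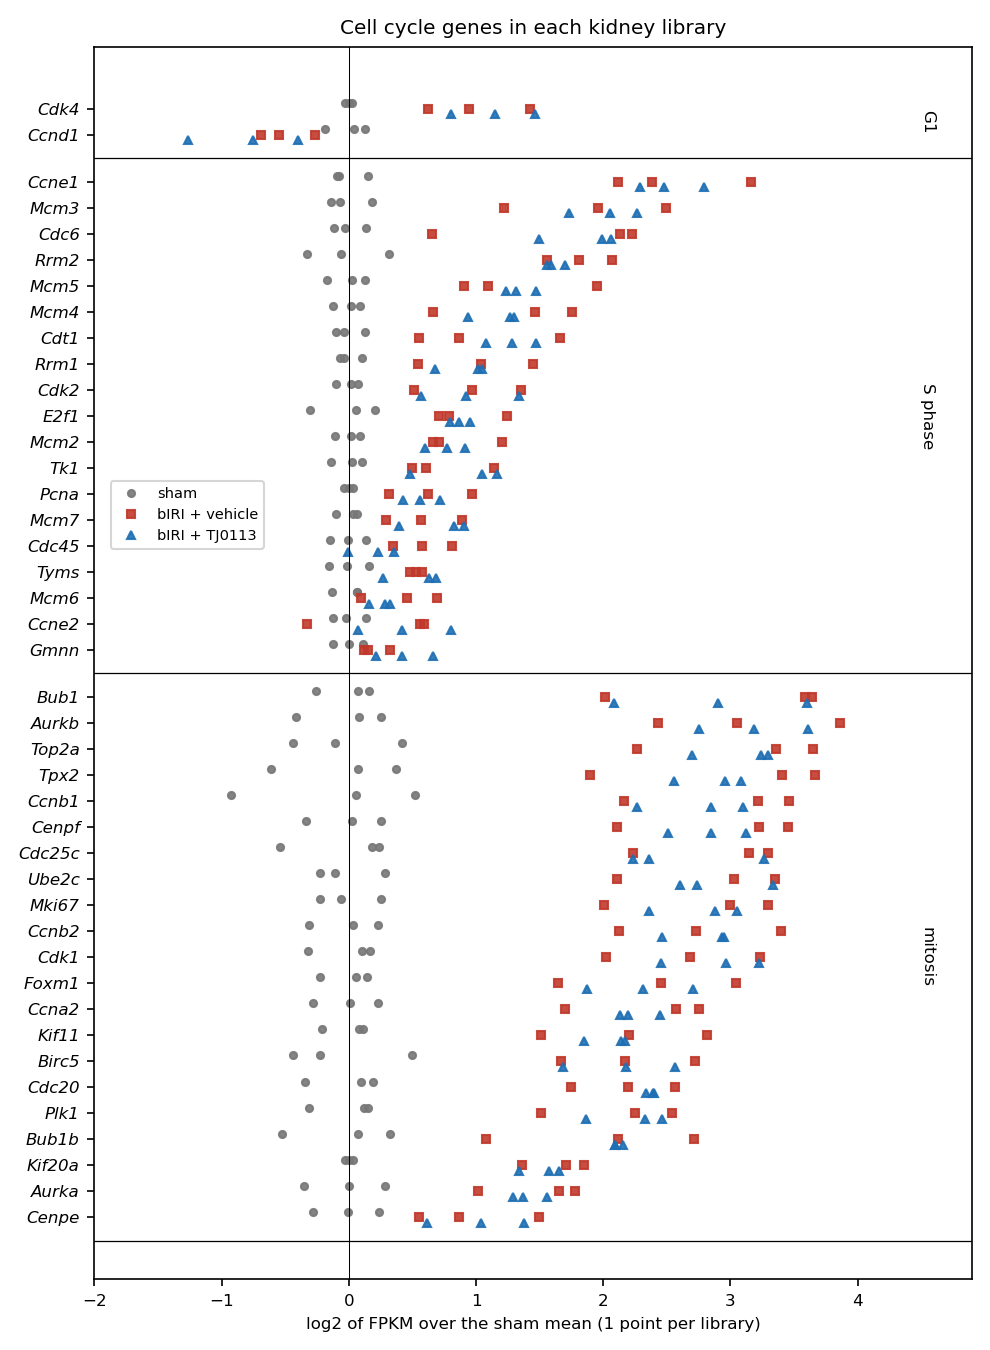
FPKM of each of the 42 genes in each of the 9 libraries, as log2 of the ratio to the gene's sham mean (grey circles sham, red squares bIRI with vehicle, blue triangles bIRI with TJ0113), ordered within each phase by the change. In 39 genes both injured groups lay wholly above sham, and Ccnd1 lay below it. Of the genes tested, 45.9% lay above sham in vehicle and 50.5% in TJ0113, and 10.8% and 14.5% lay below. The shares for both groups at once were not computed.

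The G1 pair moved in opposite directions. Cdk4, the kinase that cyclin D activates, measured 17.5, 17.8 and 17.1 FPKM in the sham libraries, 33.7, 26.9 and 47.0 in vehicle and 38.8, 30.5 and 48.3 in TJ0113. Every injured library lay above sham, and the rise in vehicle was 0.66 ± 0.22 (relative log2 ± SE, adjusted p = 0.0143), with means of 17.5 ± 0.352 and 35.9 ± 10.2 FPKM (SD, n = 3). Ccnd1, cyclin D1, measured 22.7, 24.0 and 19.3 FPKM in sham, 18.3, 13.6 and 15.1 in vehicle and 13.1, 16.7 and 9.13 in TJ0113. It was lower than every sham library in all 6 injured libraries. As fitted, the difference did not pass in vehicle (-0.47 ± 0.20, adjusted p = 0.0927) and passed in TJ0113 (-0.75 ± 0.20, adjusted p = 0.0232); relative to the median gene the changes were -0.77 and -1.01, and after median-ratio scaling the vehicle fall passed too (adjusted p = 0.0253). Both Ccnd1 results turn on single libraries: without TJ0113 library 3 the vehicle difference passed (adjusted p = 0.0448), and the TJ0113 fall was lost when any sham library, TJ0113 library 1 or TJ0113 library 3 was left out (adjusted p between 0.0534 and 0.0849).

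Further G1 genes were described from a list of 6, of which 2 rose in vehicle, a share near the 31.3% of all genes tested. Myc, a transcription factor that drives entry into the cycle, measured 3.10, 1.08 and 2.99 FPKM in sham, 19.0, 8.34 and 39.2 in vehicle and 16.1, 7.08 and 17.7 in TJ0113. All 6 injured libraries lay above sham, and the vehicle rise was 2.30 ± 0.52 (adjusted p = 0.0116; 0.0512 without sham library 2). Cdk6, the other partner of D cyclins, rose by 0.57 ± 0.25 in vehicle (adjusted p = 0.0298), a call lost without any 1 sham library or vehicle library 1 or 3 (0.0733 to 0.0957) and after median-ratio scaling (0.0627). Of 13 tested genes of the RB family, the E2F family and the DREAM complex, 4 rose in vehicle and none fell, also near the share of all genes; E2f4, an E2F that acts in repression, rose by 0.55 ± 0.16 (adjusted p = 0.0104). E2f1, an activating E2F counted among the 42, measured 0.981, 1.09 and 0.766 FPKM in sham and 1.54, 1.63 and 2.23 in vehicle. In TJ0113 it measured 1.72, 1.64 and 1.83. Its vehicle rise was 0.23 ± 0.13 (fitted 0.52, adjusted p = 0.0196), a call lost after median-ratio scaling.

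Of the cyclin E genes, the partners of CDK2, Ccne1 rose and Ccne2 did not pass. Ccne1 measured 0.154, 0.131 and 0.130 FPKM in sham, 0.719, 0.597 and 1.23 in vehicle and 0.769, 0.673 and 0.957 in TJ0113, a ratio of vehicle to sham means of 6.16 and a rise of 0.39 ± 0.14 (adjusted p = 0.0124). Ccne2 measured 0.503, 0.540 and 0.605 FPKM in sham, 0.810, 0.438 and 0.828 in vehicle and 0.733, 0.578 and 0.958 in TJ0113. Its groups overlapped and it did not pass (fitted 0.12 ± 0.14, adjusted p = 0.493; relative -0.18); the difference between the 2 cyclins was not tested. Their kinase Cdk2 went from 2.42, 2.24 and 2.52 FPKM in sham to 4.68, 3.42 and 6.12 in vehicle. That rise was 0.44 ± 0.20 (fitted 0.73, adjusted p = 0.0256), a call lost after median-ratio scaling.

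Replication begins when CDC6 and CDT1 load the MCM helicase onto DNA, and CDC45 then joins it to unwind the strands. Of the 6 helicase subunits, 5 rose in vehicle: Mcm2, Mcm3, Mcm4, Mcm5 and Mcm7, with relative log2 changes from 0.21 to 0.91. The Mcm7 call (fitted 0.505, adjusted p = 0.0444) was lost after median-ratio scaling. Mcm3 measured 1.02, 0.820 and 0.862 FPKM in sham, 3.51, 2.10 and 5.08 in vehicle and 3.74, 2.99 and 4.34 in TJ0113, and rose by 0.91 ± 0.23 (adjusted p = 0.0104). Mcm4 measured 1.89, 1.71 and 1.98 FPKM in sham, 5.14, 2.94 and 6.29 in vehicle and 4.58, 3.57 and 4.47 in TJ0113, and Mcm5 measured 1.38, 1.11 and 1.28, then 2.67, 2.36 and 4.86, then 3.47, 2.95 and 3.13 in the same order. No injured library of these 3 subunits reached down to the sham range. Mcm6 was the subunit with the smallest change: it measured 5.55, 6.36 and 6.38 FPKM in sham, 8.38, 6.51 and 9.86 in vehicle and 7.61, 7.43 and 6.82 in TJ0113. Its groups did not overlap either, but the fitted change did not pass in vehicle (0.37 ± 0.15, adjusted p = 0.0739) and passed there without vehicle library 2 (adjusted p = 0.0083). Relative to the median gene it was 0.07, and after median-ratio scaling the adjusted p was 0.999.

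Around the helicase, Cdt1 went from 1.53, 1.37 and 1.30 FPKM in sham to 2.05, 2.55 and 4.42 in vehicle. It rose by 0.40 ± 0.20 (fitted 0.70, adjusted p = 0.0283), a call lost after median-ratio scaling. Gmnn encodes geminin, the inhibitor of CDT1, and measured 5.75, 5.25 and 6.20 FPKM in sham, 7.16, 6.23 and 6.35 in vehicle and 7.66, 6.64 and 9.07 in TJ0113. Both injured groups lay above sham, by little, and neither passed (fitted change in vehicle 0.17 ± 0.13, adjusted p = 0.318; in TJ0113 0.38 ± 0.13, adjusted p = 0.0535). Relative to the median gene the changes were -0.12 and 0.12. Cdc45 measured 0.661, 0.803 and 0.730 FPKM in sham, 1.09, 0.932 and 1.28 in vehicle and 0.727, 0.933 and 0.859 in TJ0113. Vehicle lay above sham and TJ0113 overlapped it, and the fitted vehicle change did not pass (0.28 ± 0.12, adjusted p = 0.0805; relative -0.02). Cdc6 was too low to be tested, at 0.0886, 0.0832 and 0.0989 FPKM in sham (15 to 18 estimated fragments) and 0.395, 0.142 and 0.423 in vehicle.

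Pcna, the clamp that holds polymerases on DNA, measured 15.6, 14.8 and 15.3 FPKM in sham, 23.4, 19.0 and 29.7 in vehicle and 25.0, 20.4 and 22.4 in TJ0113. It had the highest FPKM of the 19 S phase genes and rose by 0.31 ± 0.16 (adjusted p = 0.0224), a smaller step than Mcm3. The Pcna call was lost after median-ratio scaling. Among genes that supply nucleotides, Rrm2, the regulatory subunit of ribonucleotide reductase, measured 1.09, 0.906 and 1.42 FPKM in sham, 4.77, 3.34 and 3.98 in vehicle and 3.43, 3.35 and 3.70 in TJ0113. Its rise of 0.94 ± 0.15 (adjusted p = 0.00409) was the largest of the tested S phase genes on the log2(FPKM + 1) scale. The group means were 1.14 ± 0.259 and 4.03 ± 0.716 FPKM (SD, n = 3). As a ratio of vehicle to sham means, Rrm2 (3.545) stood below Ccne1 (6.16) and Mcm3 (3.95). The catalytic subunit Rrm1 rose by 0.33 ± 0.17 (adjusted p = 0.0214). Thymidine kinase Tk1 rose by 0.25 ± 0.18 (fitted 0.55, adjusted p = 0.0435), a call lost after median-ratio scaling (adjusted p = 0.17). Thymidylate synthase, Tyms, passed on its fitted change of 0.36 ± 0.13 (adjusted p = 0.0477), which was 0.07 above the shift of the median gene. After median-ratio scaling it did not pass (adjusted p = 0.594), and its call was also lost in most of the leave-one-out fits.

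A list of 42 further S phase genes held 28 that were tested, of which 14 rose in vehicle and 1 fell. Of all genes tested, 31.3% rose and 5.42% fell. Among the 28, 7 had a sham mean below 0.5 FPKM and passed the limit only through the injured groups. With no limit, 12 of the 42 rose, against 7.17% of all genes. Uhrf1, needed to copy DNA methylation onto new strands, measured 0.342, 0.324 and 0.402 FPKM in sham, 3.39, 2.51 and 4.80 in vehicle and 3.82, 2.45 and 3.86 in TJ0113, and rose by 1.43 ± 0.20 (adjusted p = 0.00409). Pold1, the catalytic subunit of a replicative polymerase, rose by 0.98 ± 0.27 (adjusted p = 0.0129), a call lost without sham library 2 (0.053) or 3 (0.052).

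The mitosis genes were low in sham and had the larger ratios. All 21 had vehicle means at least 2 times their sham means, as did 8 of the 19 S phase genes and 21.9% of the genes tested. For all 21 both injured groups lay above sham. Of the genes tested, 45.9% did so in vehicle and 50.5% in TJ0113, and the share for both at once was not computed. Ccnb2, a B cyclin that activates CDK1, measured 0.614, 0.483 and 0.704 FPKM in sham, 3.98, 2.62 and 6.31 in vehicle and 4.59, 3.32 and 4.64 in TJ0113. Its relative log2 change of 1.37 ± 0.24 (adjusted p = 0.00687) was the largest of the 38 genes tested on the log2(FPKM + 1) scale. The means were 0.600 ± 0.111 and 4.30 ± 1.87 FPKM (SD, n = 3). Their ratio of 7.17 was below that of several genes lower in sham, among them Aurkb (9.40), Top2a (9.22) and Tpx2 (9.01). Ccnb1, the other B cyclin measured, read 0.187, 0.0688 and 0.136 FPKM in sham, 1.22, 0.585 and 1.44 in vehicle and 0.940, 0.630 and 1.12 in TJ0113. Cdk1, the kinase that starts mitosis, measured 0.229, 0.171 and 0.239 FPKM in sham, 1.37, 0.866 and 2.0 in vehicle and 1.67, 1.17 and 1.99 in TJ0113, and rose by 0.67 ± 0.19 (adjusted p = 0.0109). Ccna2, the cyclin of S phase and G2, rose by 0.79 ± 0.17 (adjusted p = 0.00807).

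Mki67, the gene of the Ki-67 antigen by which pathologists count cycling cells, measured 0.417, 0.372 and 0.518 FPKM in sham, 3.48, 1.75 and 4.29 in vehicle and 3.21, 2.24 and 3.62 in TJ0113. The vehicle mean was 7.28 times the sham mean, and the rise was 1.19 ± 0.24 (adjusted p = 0.00798). Top2a, which untangles the copied chromosomes, measured 0.184, 0.146 and 0.266 FPKM in sham, 2.05, 0.960 and 2.50 in vehicle and 1.89, 1.29 and 1.95 in TJ0113, a ratio of means of 9.22 and a rise of 0.90 ± 0.21 (adjusted p = 0.0089). Foxm1, the transcription factor of this phase, rose by 0.61 ± 0.20 (adjusted p = 0.0134), from a sham range of 0.212 to 0.275 FPKM to 1.36, 0.776 and 2.05 in vehicle.

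Exit from mitosis is set by the anaphase promoting complex, which marks cyclin B and other proteins for destruction. Its activator Cdc20 measured 0.780, 0.575 and 0.831 FPKM in sham, 3.34, 2.45 and 4.32 in vehicle and 3.83, 3.69 and 3.84 in TJ0113, and rose by 1.02 ± 0.16 (adjusted p = 0.0047). Its ubiquitin-conjugating enzyme Ube2c measured 0.335, 0.234 and 0.254 FPKM in sham, 2.80, 1.18 and 2.24 in vehicle and 1.83, 1.67 and 2.77 in TJ0113, and rose by 0.94 ± 0.21 (adjusted p = 0.00878). Both were above sham in all 6 injured libraries. The mitotic kinases rose too, Plk1 by 0.81 ± 0.19 (adjusted p = 0.00878), Aurkb by 0.81 ± 0.22 (adjusted p = 0.011) and Aurka by 0.43 ± 0.14 (adjusted p = 0.0112). The spindle checkpoint gene Bub1b rose by 0.45 ± 0.19 (adjusted p = 0.0192), and its untested relative Bub1 went from 0.0501, 0.0666 and 0.0627 FPKM in sham (8 to 10 estimated fragments) to 0.717, 0.241 and 0.748 in vehicle.

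The spindle genes described next ran from 0.03 to 0.85 in relative change, below the largest changes of the phase. Tpx2, a spindle assembly factor that activates Aurora A, rose by 0.85 ± 0.24 (adjusted p = 0.0121), from 0.204, 0.127 and 0.252 FPKM in sham to 2.06, 0.724 and 2.47 in vehicle. Birc5, survivin, the partner of Aurora B, rose by 0.62 ± 0.19 (adjusted p = 0.012). Kif20a, a motor of the dividing cell's midzone, measured 0.330, 0.314 and 0.321 FPKM in sham, 1.05, 0.827 and 1.16 in vehicle and 1.01, 0.812 and 0.956 in TJ0113, and rose by 0.31 ± 0.11 (adjusted p = 0.0101). Cenpe, a kinetochore motor, measured 0.341, 0.283 and 0.405 FPKM in sham, 0.626, 0.503 and 0.965 in vehicle and 0.704, 0.525 and 0.894 in TJ0113. Its groups did not overlap, with a ratio of means of 2.03, and it was the only tested mitosis gene of the set that did not pass (fitted 0.33 ± 0.14, adjusted p = 0.0829; relative 0.03). The untested Cenpf, another kinetochore protein, and Cdc25c, the phosphatase that activates CDK1, had vehicle means 8.22 and 7.79 times their sham means.

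Of 52 further mitosis genes, 33 were tested, 26 rose in vehicle and 1 fell, where 31.3% of all genes tested rose and 5.42% fell. Among the 33, 14 had a sham mean below 0.5 FPKM and passed the limit only through the injured groups, Melk among them. With no limit, 28 of the 52 rose, against 7.17% of all genes. Cks1b, a small CDK-binding protein, rose by 1.20 ± 0.26 (adjusted p = 0.00883), and the kinase Melk went from 0.110, 0.0830 and 0.0774 FPKM in sham to 1.07, 0.594 and 1.00 in vehicle (0.49 ± 0.13, adjusted p = 0.00848). The faller was the kinesin Kif20b, at 3.87, 5.39 and 6.35 FPKM in sham, 1.60, 3.05 and 1.07 in vehicle and 0.916, 2.18 and 1.07 in TJ0113 (vehicle -1.43 ± 0.28, adjusted p = 0.0189). It was named after its values were seen, as the 1 gene that fell, and its call was lost without sham library 2 or 3 or vehicle library 1 or 3 (adjusted p between 0.055 and 0.0722).

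Of 7 CDK inhibitor genes, 2 rose in vehicle and none fell, a share near the 31.3% of all genes tested. Cdkn1a, p21, which blocks CDK2 and binds PCNA, measured 0.698, 0.784 and 0.696 FPKM in sham, 11.4, 5.34 and 19.0 in vehicle and 7.42, 2.71 and 10.4 in TJ0113. Every injured library lay above sham, and the vehicle rise was 2.45 ± 0.46 (adjusted p = 0.00875). Cdkn2d, an inhibitor of CDK4 and CDK6, rose by 0.31 ± 0.16 (adjusted p = 0.0219), a call lost without sham library 2 or 3 (0.0839 and 0.0739) and after median-ratio scaling (0.11) or quantile normalization (0.261). Cdkn2a, picked after its values were seen, was at 0.0233 and 0.0248 FPKM and listed at 0 in the sham libraries, at 0.710, 0.124 and 4.17 in vehicle and at 0.469, 0.150 and 2.02 in TJ0113. It did not pass in vehicle (0.79 ± 0.52, adjusted p = 0.121), and library 3 was the highest in both injured groups. Of 8 tested checkpoint genes 4 rose in vehicle, against 31.3% of all genes tested, among them Wee1 and Pkmyt1, kinases that hold CDK1 inactive, with 0.81 ± 0.16 (adjusted p = 0.00705) and 0.78 ± 0.28 (adjusted p = 0.0215; 0.0555 to 0.0705 without 1 of the sham libraries), and Fzr1, the activator of the anaphase promoting complex in G1, with 0.57 ± 0.15 (adjusted p = 0.00878).

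**Figure D3:**
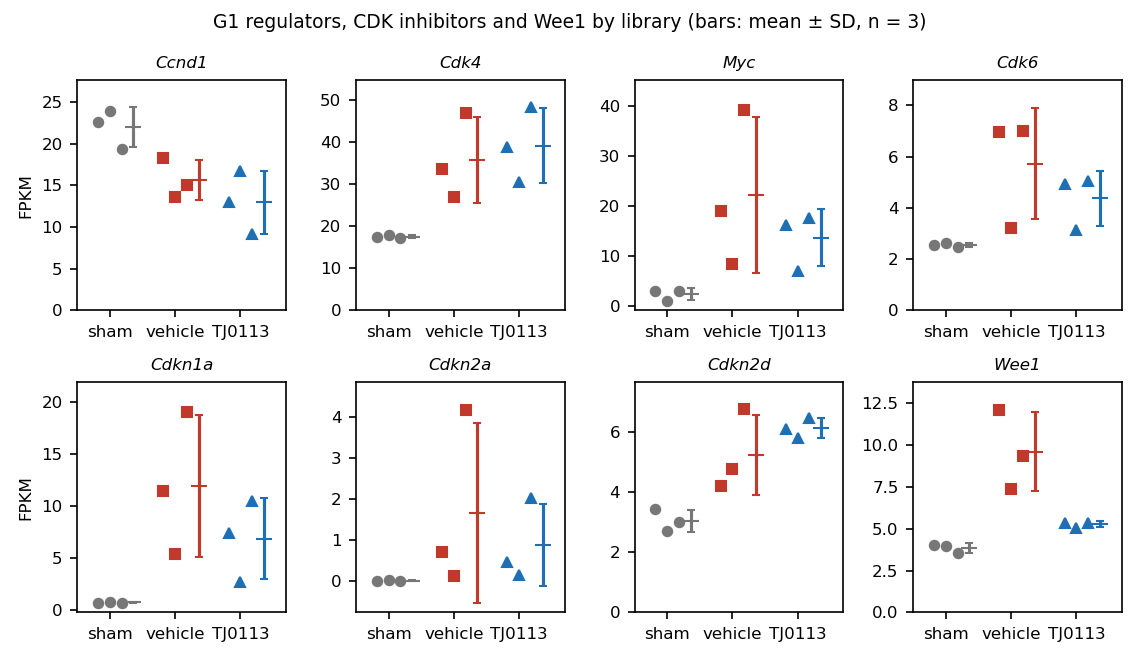
FPKM (linear) of Ccnd1, Cdk4, Myc, Cdk6, 3 CDK inhibitors and Wee1 in each library, with the mean ± SD of each group of 3. Ccnd1 lay below sham in all injured libraries and Cdkn1a above it. The Wee1 values of TJ0113 (5.07 to 5.37) lay below those of vehicle (7.40 to 12.1), a difference that did not pass.

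TJ0113-treated kidneys also stood above sham. Of 38 tested, 32 rose against sham and Ccnd1 fell, where 28.9% of all genes tested rose and 5.92% fell. After median-ratio scaling 27 rose and Ccnd1 fell, against 18.6% and 18.2% of all genes tested. Without a limit on level 26 of the 42 rose, against 7.69% of all genes. Both comparisons with sham use the same 3 sham libraries, so they are set side by side and not counted as separate support. The median ratio of means to sham was 1.89 for S phase and 6.48 for mitosis genes, against 1.3 over the genes tested. In 39 of the 42 genes every TJ0113 library lay above every sham library, as for 50.5% of the genes tested, and Ccnd1 lay below, as for 14.5%. Relative changes from sham in TJ0113 were 1.43 for Ccnb2, 1.21 for Mki67 and for Cdc20, 1.03 for Mcm3, 0.82 for Rrm2 and 0.84 for Cdk4, each with an adjusted p between 0.00443 and 0.0102. The 5 genes that did not pass were Cdc45, Ccne2, Mcm6, Cenpe and Gmnn.

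Compared directly with vehicle, TJ0113 changed the level of none of the 42 genes by a margin that passed. Of 38 tested, 0 were called by limma (0% of 15453 genes), none had an unadjusted p under 0.05 (6% of all genes did), and 0 were called by voom on estimated fragments. Estimates are given as fitted, since the median gene differed by only -0.03. They were positive for 17 genes, where 43.8% of all genes tested were positive, and negative for 21, with a median of -0.02. The largest were Ccnd1 at -0.28 ± 0.20 (adjusted p = 0.846), Gmnn at 0.21 ± 0.13 and Cdc45 at -0.19 ± 0.11. All 38 intervals (95%) lay within 1 on the log2 scale, from -0.74 to 0.63 at their extremes, reaching 0.25 to 0.53 to either side of the estimate. A difference of 1 on this scale, 2-fold for well expressed genes and more on the linear scale for low ones, lay outside the interval of every tested gene, and differences up to those bounds are left possible. On the linear scale the ratio of TJ0113 to vehicle means ran from 0.763 (Cdc45) to 1.18 (Gmnn); it was below 1 in 28 of the 42 genes, with a median of 0.967 in S phase and 0.932 in mitosis genes against 0.959 over the genes tested. None of the 42 had TJ0113 and vehicle libraries apart, against 2.96% of the genes tested that were apart upward and 4.39% downward.

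**Figure D4:**
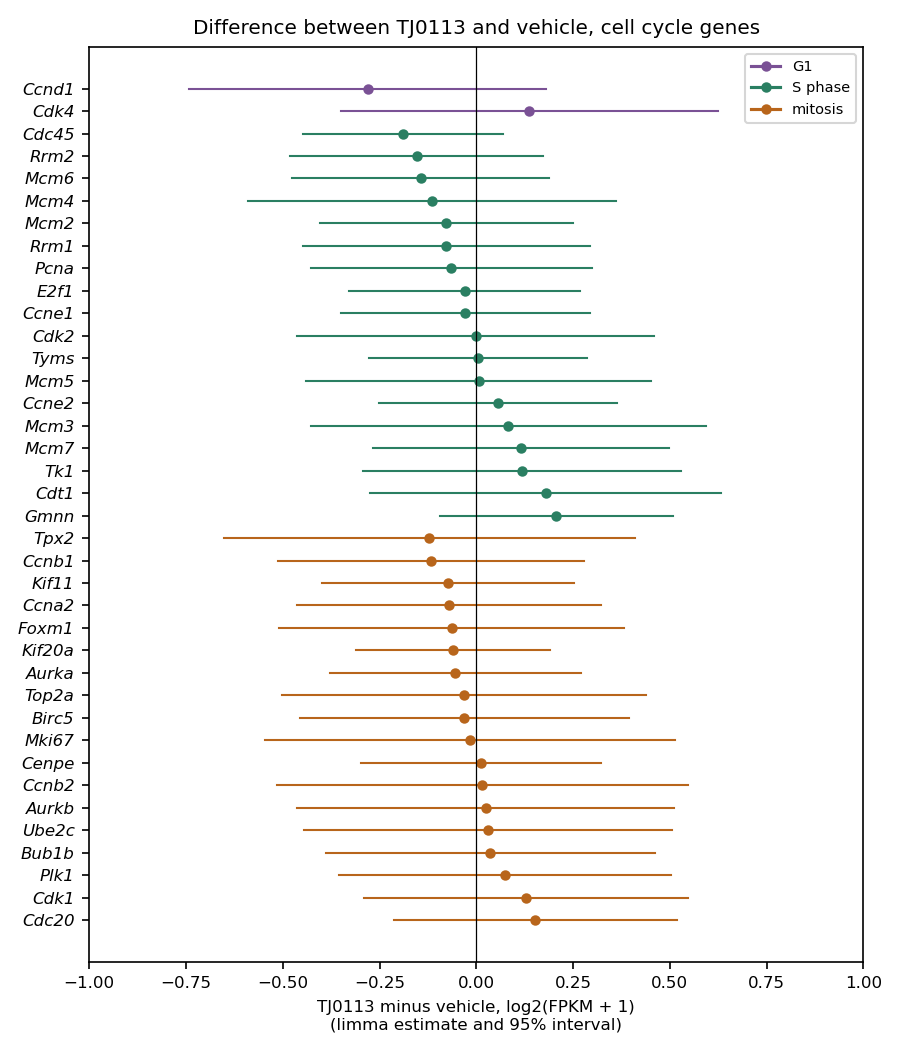
Difference between TJ0113 and vehicle for the 38 tested genes on the log2(FPKM + 1) scale, with the limma estimate (point) and its 95% interval (line), by phase. Every interval crosses 0 and lies between -0.74 and 0.63.

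Beside the 42, 3 genes of the further cell cycle lists had vehicle and TJ0113 libraries that did not overlap. They were 1 of 42 further S phase genes, 1 of 15 RB, E2F and DREAM genes and 1 of 9 checkpoint genes. None of the 52 further mitosis genes, 7 CDK inhibitors and 6 further G1 genes was apart. Of the genes tested, 2.96% were apart upward and 4.39% downward, so the 3 are not more than those shares would give. The 3 genes are named after their values were seen. Wee1 measured 4.04, 3.98 and 3.54 FPKM in sham, 12.1, 7.40 and 9.32 in vehicle and 5.37, 5.07 and 5.36 in TJ0113. TJ0113 lay between the other groups, at -0.74 ± 0.16 from vehicle, and did not pass the adjustment over all genes (adjusted p = 0.796). E2f6, a repressing E2F, measured 4.77, 4.02 and 4.64 FPKM in vehicle and 3.48, 3.68 and 3.88 in TJ0113 (-0.23 ± 0.11, adjusted p = 0.798). Ung, which removes uracil from DNA and was too low to be tested, measured 0.459, 0.349 and 0.466 FPKM in vehicle and 0.606, 0.520 and 0.606 in TJ0113. Cdkn1a was at -0.71 ± 0.46 from vehicle, with overlapping libraries (adjusted p = 0.819).

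In vehicle, most of the genes followed the same order of libraries. In 39 of the 42 genes, vehicle library 2 was the lowest of its group, as in 62.3% of the genes tested, and vehicle library 3 was the highest in 38, as in 59.5%. Within TJ0113, library 2 was the lowest in 38 genes and library 3 the highest in 30. The shares over all genes tested were not computed for TJ0113, so these counts do not set the cell cycle genes apart. The 21 mitosis genes summed to 6.52, 5.05 and 7.10 FPKM in the sham libraries, 36.1, 20.7 and 46.4 in vehicle and 34.9, 27.0 and 38.3 in TJ0113. Against the sham mean these are 5.80, 3.33 and 7.46 times in vehicle and 5.61, 4.34 and 6.15 times in TJ0113, so vehicle held both the lowest and the highest injured library. The 19 S phase genes summed to 51.1, 48.9 and 51.6 FPKM in sham, 85.0, 68.7 and 107 in vehicle and 90.4, 74.5 and 91.2 in TJ0113, with the same order of libraries in vehicle. As the mean of log2(FPKM + 1) over a phase, less its sham mean, the mitosis genes stood at 0.99, 0.56 and 1.20 in vehicle and 0.94, 0.74 and 1.03 in TJ0113, and the S phase genes at 0.58, 0.37 and 0.85 and at 0.64, 0.46 and 0.69. With vehicle library 2 left out, 35 of the 38 genes were called against sham instead of 32.

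In vehicle, summed markers of macrophages, injured tubule, fibroblasts and T and NK cells were also lowest in library 2 and highest in library 3. So were those of neutrophils, B and plasma cells, endothelium (33.4, 12.3 and 35.3 FPKM) and podocytes (31.6, 15.1 and 52.9). No endothelial or podocyte marker was called higher in vehicle. Erythroid markers were lowest in library 1. Those of healthy proximal tubule were highest in library 2 and lowest in library 3. Collecting duct markers, at 188, 222 and 122 FPKM in vehicle, had the same order as proximal tubule. Distal tubule markers, at 175, 243 and 43.1, had it too. Thick ascending limb markers, at 1027, 911 and 384, were highest in library 1 and lowest in library 3. Beside the counts of risen markers that follow, 31.3% of all genes tested rose in vehicle and 28.9% in TJ0113. Macrophage markers, 12 genes of which 11 rose in each injured group and none was at 0, summed to 42.9 to 62.6 FPKM in sham, 967, 313 and 1834 in vehicle and 621, 521 and 1053 in TJ0113. Markers of injured tubule, 9 genes that all rose in vehicle and of which 8 rose in TJ0113, summed to 427 to 455 FPKM in sham, 10390, 4876 and 14110 in vehicle and 10600, 3846 and 14050 in TJ0113. Fibroblast and pericyte markers, of which 7 of 8 rose in vehicle and 8 in TJ0113, went from 22.2 to 30.1 FPKM in sham to 236, 78.8 and 333 in vehicle and 153, 158 and 247 in TJ0113. In the macrophage, injured tubule and fibroblast lists, 1, 2 and 1 markers had a sham mean below 0.5 FPKM. These passed that limit only through the injured groups. With no limit, 10, 8 and 4 markers of these lists rose in vehicle and 10, 7 and 4 in TJ0113. T and NK cell markers summed to 1.34 to 1.97 FPKM in sham and 7.20, 3.54 and 13.9 in vehicle. In TJ0113 they summed to 5.52, 9.69 and 9.28. Of the 6 tested, 3 rose in vehicle and 4 in TJ0113, against 31.3% and 28.9% of all genes tested. All 6 had a sham mean below 0.5 FPKM and passed that limit only through the injured groups. With no limit, 1 of the 8 rose in vehicle and 2 in TJ0113, against 7.17% and 7.69% of all genes. Markers of healthy proximal tubule fell in 5 of 10 genes in vehicle and 3 in TJ0113, against 5.42% and 5.92% of all genes tested. They summed to 2663, 4222 and 2134 FPKM in vehicle and 4225, 3873 and 2934 in TJ0113. The part of these cells in the cell cycle values was not tested, and the files do not show which cells carried the transcripts.

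**Figure D5:**
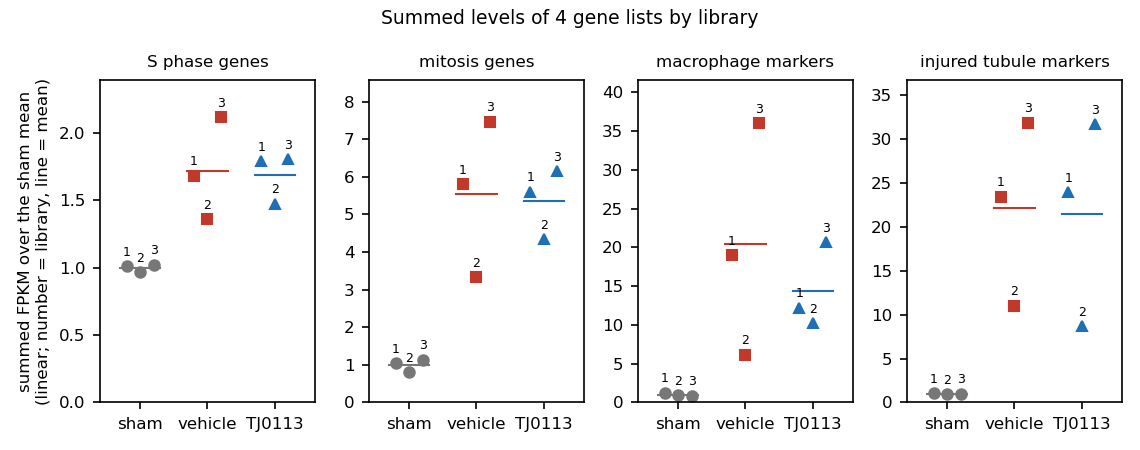
Summed FPKM of 4 gene lists in each library as a ratio to the sham mean (linear axes from 0, number = library, line = group mean). Vehicle library 2 was the lowest and vehicle library 3 the highest of the vehicle libraries in all 4 lists.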

How the data were processed

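Messenger RNA of renal cortex was measured in 9 libraries, 3 per group, from total RNA made into paired-end libraries, per the labels' protocols. Alignment was with HISAT2, per the submitters' processing notes, with counter, build and annotation not given in the sources used here. Deposited FPKM, scaled by the authors for gene length and library total, were used as deposited; per-library depth was estimated from the steps of low values, 98.7% or more of which fell within 0.02 fragments of a whole step or midway between steps. GENCODE M21 named 33893 of 34669 identifiers (97.8%). Groups were compared with limma 3.58.1 in R 4.3.3 (trended variance, log2(FPKM + 1), all 9 libraries, mean of at least 0.5 FPKM, two-sided). Promoter sequences are RefSeq's. Alternatives changed the pseudocount, limit on level, scaling, samples and model. The members and lists were chosen with earlier results of these data known. Values in every library are given for key regulators, for the largest and smallest changes of each phase and for the largest TJ0113 differences. Of 215 genes on 19 further lists, 214 were found and 1 was not analysed here. A gene that fell among the further S phase genes stays in the counts and is not reported here.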

Additional observations from a re-analysis of the deposited data

How the results depend on the processing

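With sham as reference, the counts of 32 and 33 called genes stayed within 1.5 times under the other pseudocounts, no limit on level (25 and 26), equal FPKM sums (32 and 30), median-ratio scaling (26 and 28), quantile normalization (24 and 23), fits of the 2 groups compared (30 and 35) and voom on estimated fragments, added after seeing the data (33 and 34). At a mean of at least 2 FPKM, 14 and 16 of 18 tested genes were called. Leaving out single libraries gave 12 to 35 in both comparisons, and fewer samples enter those fits. TJ0113 against vehicle gave 0 throughout. The 12 vehicle calls named in the report held in every setting in which the genes were tested. With equal FPKM sums the median gene stood at 0.42 for vehicle and 0.29 for TJ0113 against sham and at -0.13 for TJ0113 against vehicle; after median-ratio scaling it lay at -0.01 for vehicle against sham. Ccnd1 in vehicle passed under median-ratio scaling (adjusted p = 0.0253) and quantile normalization (0.0423), and in TJ0113 missed without a limit (0.0562).

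Signs of relative changes from sham turned only in genes near the median shift. With no limit on level the fitted change of a gene stays the same, and only the median taken off moves. For the other settings the cause was not tested. In vehicle, Ccne2 was 0.081 and Gmnn 0.13 with no limit on level; Mcm6 was -0.001 without sham 1 and 0.131 without vehicle 2; Cenpe was -0.025 with equal sums and ran from -0.003 (without vehicle 3) to 0.074 (without sham 3) over the leave-outs; Tyms was -0.007 under quantile normalization and -0.018 without vehicle 2. Cdc45 in vehicle was 0.135 and 0.032 with pseudocounts 0.1 and 0.5, 0.239 with no limit, 0.086 under median-ratio scaling, 0.181 under voom, and from -0.065 (without sham 1) to 0.016 (without sham 2) over the leave-outs. In TJ0113, Ccne2 was 0.026 with pseudocount 0.1, 0.142 with no limit, 0.031 under median-ratio scaling and 0.064 under voom; Mcm6 was 0.191 with no limit, 0.000 without sham 2, and between -0.113 (without sham 1) and 0.048 (without TJ0113 3) over the leave-outs; Cdc45 was 0.054 with no limit. Among all single-gene values, 13 of the vehicle and 8 of the TJ0113 results against sham turned sign, and 125 and 110 no longer passed.

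With pseudocount 0.1, which lifts low genes, the mitosis level was 2.127, 1.376 and 2.453 in vehicle and 2.019, 1.676 and 2.191 in TJ0113; the S phase level was 0.909 and 1.256 in vehicle 1 and 3, and 0.973, 0.725 and 1.047 in TJ0113.

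Same-numbered libraries did not deviate together throughout (correlations of -0.08, -0.08 and -0.24 for vehicle and sham, -0.06, 0.50 and 0.56 for TJ0113 and vehicle), so numbers were not taken as pairs. With the replicate number entered as a block, the fit called 32, 0 and 35 genes for vehicle against sham, TJ0113 against vehicle and TJ0113 against sham. Low estimated fragments in sham limit what can be said of Cdc25c (3 to 5.5), Bub1 (8 to 10) and Ccnb1 (10 to 29). The same limit applies to Ccne1 (12 to 15), Cdc6 (15 to 18) and Aurkb (13 to 22).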
